A study of Mus musculus with 12 samples.

Results

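Expression of 10 genes of the endoplasmic reticulum (ER) stress response was followed in hepatocytes from fatty livers of wild-type (WT) and Ptprk knockout (KO) mice. The genes were Hspa5, Hsp90b1, Sdf2l1, Dnajb9, Herpud1, Xbp1, Atf6, Atf4, Ddit3 and Trib3. They were taken by symbol from a table of 52636 mouse genes, and each symbol matched 1 row. RNA had been sequenced from 6 mice, 3 WT and 3 KO, where Ptprk encodes a receptor-type protein tyrosine phosphatase. Each mouse gave 1 library of hepatocytes with low fat content and 1 of hepatocytes with high fat content, so that each genotype has 3 low-fat and 3 high-fat libraries, 4 groups in all. All mice had steatotic livers, and the fractions were separated by density and centrifugation of the cell suspension from the same liver. The cause of the steatosis, the age and sex of the mice and the Ptprk allele are not given in the sources used here.

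The ER folds secreted and membrane proteins, and hepatocytes, which secrete most plasma proteins, depend on it heavily. When unfolded proteins accumulate, the sensors IRE1 (encoded by Ern1), PERK (Eif2ak3) and ATF6 start the unfolded protein response: IRE1 splices Xbp1 mRNA into the form that encodes an active transcription factor, ATF6 is cut to release its own transcription factor domain, and PERK slows translation while favouring that of Atf4. XBP1 and ATF6 raise ER chaperones and degradation factors, and ATF4 raises genes of amino acid metabolism and, under lasting stress, Ddit3 (CHOP) and Trib3. A gene-level mRNA table does not measure Xbp1 splicing, ATF6 cleavage or Atf4 translation.

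Values are reads per 20 M (M, mega), the scale to which the deposited libraries had been brought. Depth estimated from the step pattern of these values was 15.1 to 25 M reads per library, so that 3 reads correspond to between 2.4 and 3.98 reads per 20 M. This floor covers counting error only. Ptprk lay between 2174 and 2883 in the 6 WT libraries and between 1117 and 1364 in the 6 KO libraries, with no overlap, so the labels and the targeted gene matched although reads from the gene were still counted in the KO. The 8 hepatocyte markers together took 546040 to 630698 reads per 20 M over the 12 libraries. High-fat libraries held more RNA of stellate, endothelial and Kupffer cells. The sum of 8 stellate cell markers was 152 to 709 in low-fat and 2191 to 3776 in high-fat libraries, that of 8 endothelial markers 911 to 2239 and 3736 to 11691, and that of 8 Kupffer cell markers 436 to 1359 and 2006 to 10704. Both replicate 1 high-fat libraries stood apart with Kupffer marker sums of 10704 (WT) and 9267 (KO), against 2277 at most in the other high-fat libraries. Biliary marker sums, mostly reads of Sox9 and Spp1, were 371 to 507 in low-fat and 271 to 364 in high-fat libraries. Cftr was at 0 in all WT high-fat libraries. Lymphocyte marker sums were 27 to 342 in low-fat and 71 to 412 in high-fat libraries.

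All 10 genes were well above the floor in every library, the lowest single value being 89 for Ddit3. Together they took 0.202 to 0.361% of the reads of a library. To compare levels between genes, values were divided by the length of the annotated exons. On that scale of reads per 20 M per kilobase, the mean ± SD over the 12 libraries was 5326 ± 1870 for Herpud1, 4469 ± 1050 for Hspa5 and 4028 ± 882 for Hsp90b1. The ranges of these top 3 genes overlapped. Xbp1 followed at 1199 ± 147, its highest library (1360) below the lowest Herpud1 library (2370). Next came Sdf2l1 at 832.7 ± 347, Atf4 at 563.6 ± 76.5 and Dnajb9 at 551.4 ± 189, and Atf6 at 305 ± 25.9. The range of Sdf2l1 overlapped those of Xbp1, Atf4, Dnajb9 and Atf6. The stress effectors Trib3 (107.3 ± 49.5) and Ddit3 (104.7 ± 30.8) were lowest and overlapped each other, but not Atf6, whose lowest library stood at 258.

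The promoters of the 3 most abundant genes carry the sequence elements through which the response is known to act, and they are shown for that reason. RefSeq promoters of GRCm38.p6, 300 bases that run from 250 before to 50 after the start site, were found for 9 of the 10 genes, all but Atf6. Both strands were searched for the ER stress element bound by ATF6 (CCAAT, any 9 bases, then CCACG), its shorter form ERSE-II (ATTGG, any 1 base, then CCACG), the core of the unfolded protein response element (TGACGTG) and the C/EBP-ATF element read by ATF4 (TGATGCAA). Overlap between motifs was allowed. The 250 bases before the start site are printed 5′ to 3′ on the gene's strand, with the fixed letters of each match in capitals.

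Hspa5: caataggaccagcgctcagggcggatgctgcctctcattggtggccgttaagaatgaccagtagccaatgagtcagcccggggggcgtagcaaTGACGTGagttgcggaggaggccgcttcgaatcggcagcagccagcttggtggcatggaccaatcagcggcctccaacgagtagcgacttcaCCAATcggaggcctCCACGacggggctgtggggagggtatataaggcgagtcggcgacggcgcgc
Hsp90b1: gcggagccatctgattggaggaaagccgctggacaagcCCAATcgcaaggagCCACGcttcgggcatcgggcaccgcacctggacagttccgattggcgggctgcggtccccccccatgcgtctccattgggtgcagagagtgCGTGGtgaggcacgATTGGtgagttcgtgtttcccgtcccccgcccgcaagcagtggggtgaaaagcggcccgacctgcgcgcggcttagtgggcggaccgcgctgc
Herpud1: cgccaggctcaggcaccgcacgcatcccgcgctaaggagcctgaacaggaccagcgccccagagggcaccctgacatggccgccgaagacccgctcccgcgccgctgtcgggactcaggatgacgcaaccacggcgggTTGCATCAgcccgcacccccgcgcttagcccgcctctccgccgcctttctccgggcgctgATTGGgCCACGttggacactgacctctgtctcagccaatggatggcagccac

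The Hspa5 window (chr2:34771840-34772089, plus strand) held 1 ER stress element whose first base lies 65 bases before the start site, and TGACGTG at 157. The Hsp90b1 window (chr10:86705445-86705694, minus strand) held 2 ER stress elements, at 212 bases and, on the opposite strand, at 107. The Herpud1 window (chr8:94386179-94386428, plus strand) held ERSE-II at 52 bases and, on the opposite strand, the C/EBP-ATF element at 112. Over 27025 genes with a window of the same length, the ER stress element was found in 0.137%, ERSE-II in 0.0444%, TGACGTG in 2.22% and the C/EBP-ATF element in 1.03%. No exact match was in the windows of Xbp1, Atf4, Ddit3, Trib3, Dnajb9 or Sdf2l1. The search took exact letters only, so an element with 1 changed base would not be found. Such a match describes the letters and does not show binding.

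For Hspa5 the order of the 3 mice within each genotype was the same in both fractions. Gene positions below are those of the GENCODE M21 annotation of GRCm38. Hspa5 (ENSMUSG00000026864, chr2:34771970-34777547) encodes BiP, the main ER chaperone of the HSP70 family and the protein that holds the sensors inactive. Its values were 26270, 14878 and 18951 in WT low-fat replicates 1 to 3, and 23744, 13548 and 17660 in the WT high-fat libraries of the same mice. They were 21522, 22959 and 13391 in KO low-fat and 18818, 21674 and 13386 in KO high-fat replicates 1 to 3. WT replicate 2 and KO replicate 3 were the low mice in both fractions, and the 4 groups overlapped throughout.

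Hsp90b1 (ENSMUSG00000020048, chr10:86690209-86705509) encodes GRP94, the HSP90 of the ER. It gave 19889, 13888 and 14793 in WT low-fat, 19915, 12570 and 14557 in WT high-fat, 21378, 17593 and 11911 in KO low-fat and 20781, 15933 and 11677 in KO high-fat replicates 1 to 3. Both replicate 1 mice were high, and KO replicate 3 and WT replicate 2 were low in each fraction. Sdf2l1 (ENSMUSG00000022769, chr16:17130138-17132383), a small ER protein that works in a complex with BiP and its co-chaperones, spread more widely. Its values were 1295, 554 and 900 in WT low-fat, 1216, 519 and 964 in WT high-fat, 1548, 924 and 371 in KO low-fat and 1321, 1022 and 437 in KO high-fat replicates 1 to 3. The order of the 3 mice within a genotype was the same in both fractions for Sdf2l1, as it was for Hsp90b1.

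Dnajb9 (ENSMUSG00000014905, chr12:44205559-44210326) encodes ERdj4, a BiP co-chaperone that promotes degradation of misfolded proteins and restrains IRE1, and followed another order. It measured 1271, 1059 and 1905 in WT low-fat, 1278, 825 and 1653 in WT high-fat, 1131, 2275 and 1228 in KO low-fat and 916, 2176 and 1149 in KO high-fat replicates 1 to 3. KO replicate 2 and WT replicate 3 were the high mice. Herpud1 (ENSMUSG00000031770, chr8:94386438-94395377), an ER membrane protein of the machinery that sends misfolded proteins to the proteasome, shared those 2 high mice. Its values were 13062, 6975 and 16410 in WT low-fat, 12090, 5523 and 14776 in WT high-fat, 14371, 19083 and 8449 in KO low-fat and 13556, 17148 and 7668 in KO high-fat replicates 1 to 3. WT replicate 2 was lowest for both genes, and for both the groups overlapped. Herpud1 lies across from the annotated antisense gene Gm15890, and the strandedness of the counting is not given in the sources used here, so reads of the pair may not be separable.

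The transcription factors of the response were steadier. Xbp1 (ENSMUSG00000020484, chr11:5520659-5525893) stood at 4120, 4111 and 4414 in WT low-fat, 3857, 3622 and 4374 in WT high-fat, 3021, 4344 and 3925 in KO low-fat and 3077, 4239 and 3631 in KO high-fat replicates 1 to 3, with KO replicate 1 lowest in both fractions. Atf6 (ENSMUSG00000026663, chr1:170704674-170867771) stayed between 2381 and 3129 in the 12 libraries. Its group means ± SD (n = 3) were 2868 ± 183 in WT low-fat, 2568 ± 252 in WT high-fat, 2960.7 ± 194 in KO low-fat and 2864 ± 223 in KO high-fat. These groups overlapped. Atf4 (ENSMUSG00000042406, chr15:80255184-80257541) measured 1618, 1635 and 1107 in WT low-fat, 1488, 1208 and 1096 in WT high-fat, 1293, 1323 and 1437 in KO low-fat and 1266, 1192 and 1285 in KO high-fat replicates 1 to 3. Each of the 6 high-fat values of Atf4 was below the low-fat value of the same mouse.

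The effectors of lasting stress were scarce. Ddit3 (ENSMUSG00000025408, chr10:127290774-127296288) encodes CHOP, a transcription factor tied to cell death under prolonged stress. Its values were 195, 166 and 152 in WT low-fat, 241, 161 and 150 in WT high-fat, 204, 232 and 117 in KO low-fat and 274, 171 and 89 in KO high-fat replicates 1 to 3. KO replicate 3 was the lowest mouse in both fractions. Ddit3 overlaps annotated neighbours, among them Mars on the opposite strand, so some of its reads may not be its own, and annotated genes also overlap Hsp90b1, Atf6 and Dnajb9. Trib3 (ENSMUSG00000032715, chr2:152337422-152344032), a pseudokinase induced through ATF4 and CHOP, gave 94, 156 and 248 in WT low-fat, 132, 153 and 305 in WT high-fat, 138, 379 and 260 in KO low-fat and 188, 437 and 247 in KO high-fat replicates 1 to 3. KO replicate 2 was its highest mouse, WT replicate 1 its lowest, and all groups overlapped.

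**Figure D1:**
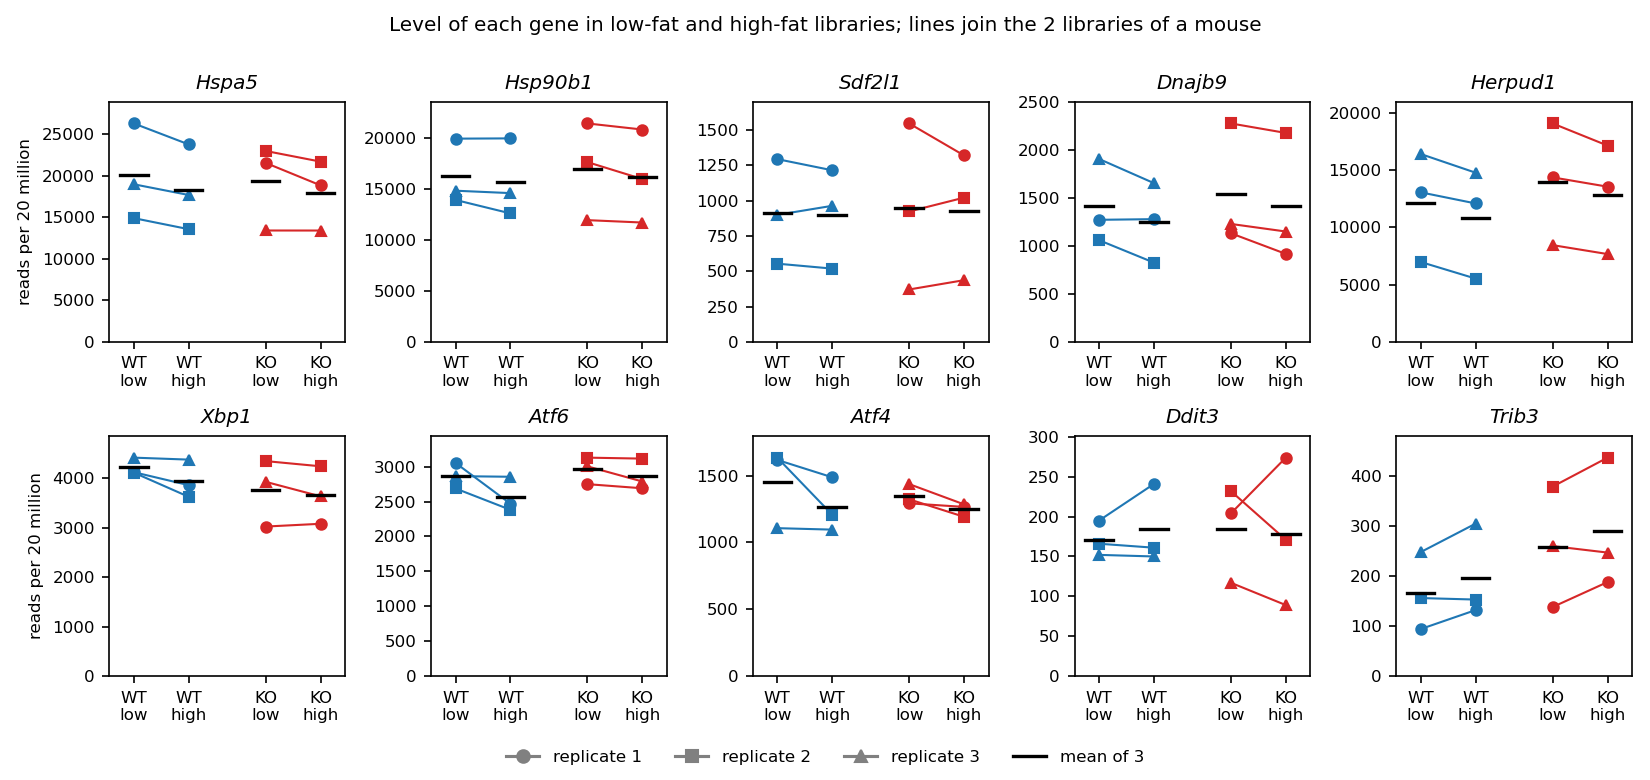
Reads per 20 M (vertical axis, from 0) of each gene in the low-fat and high-fat library of each mouse, WT in blue and KO in red; a line joins the libraries of a mouse and black bars are the means of 3. The lines of a genotype mostly run side by side, so the mice keep their places between fractions, as for Herpud1, where KO replicate 2 is at 19083 and 17148 and WT replicate 2 at 6975 and 5523.

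Comparisons were tested with limma, a linear model that steadies the variance of each gene by that of the others, on log2(value + 2) after a trimmed mean of M values (TMM) scaling that compensates for composition differences between libraries. All fold changes below are on that scale, which understates changes of low genes. The model was fitted to the 16563 genes that reached 10 reads per 20 M in 3 or more libraries, and all 10 genes were among them. P-values are two-sided, with Benjamini-Hochberg adjustment over those genes. A gene counts as called when its adjusted p is under 0.05.

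Averaged over both genotypes, the means of 9 of the 10 genes were lower in high-fat than in low-fat hepatocytes, all but Trib3, but limma called 0 of the 10 without a term for the mouse and 2 with it. The 10 genes stood at a median log2 fold change of -0.17, against -0.05 over all genes tested, of which 9810 of 16563 were lower. The values (SE from limma, 6 mice) were -0.25 (0.273) for Dnajb9, -0.24 (0.32) for Herpud1, -0.23 (0.098) for Atf4, -0.19 (0.201) for Hspa5 and -0.18 (0.086) for Atf6. They were -0.15 (0.115) for Xbp1, -0.14 (0.179) for Hsp90b1, -0.11 (0.237) for Ddit3, -0.07 (0.383) for Sdf2l1 and 0.14 (0.336) for Trib3. Without the mouse term limma called 5.74% of all genes, and 1 of the 10 (Atf4) had an unadjusted p under 0.05, as had 3168 of 16563 genes. Sdf2l1 was slightly higher, at 0.01, when the deposited scaling alone was used.

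Both libraries of a replicate number come from 1 mouse, so the same model was also fitted with a term for the mouse, which removes the differences between mice from the error. It called 2 of the 10 genes, both lower in the high-fat fraction, against 3.7% of all genes called lower and 10.5% called in either direction. Atf4 fell by 0.23 on the log2 scale (a change of -14.8%, SE 0.058, limma adjusted p = 0.0403, lower in 6 of 6 mice). Herpud1 fell by 0.24 (a change of -15.4%, SE 0.062, limma adjusted p = 0.0433, lower in 6 of 6 mice). Dnajb9 came next, also lower in 6 of 6 mice, but missed the threshold (-0.25, SE 0.072, limma adjusted p = 0.0629). Both calls rest on that term. When an estimated correlation between the libraries of a mouse took its place, limma called 0 of the 10, with an adjusted p = 0.0653 for Atf4 and an adjusted p = 0.505 for Herpud1. That correlation was 1 value shared by all genes (0.347), so it does not follow how far mice differ in a single gene. The calls were also near the threshold. With both libraries of 1 mouse left out in turn, they held without KO replicate 1 or KO replicate 2. They were lost without any of the other 4 mice, where the limma adjusted p reached 0.139 for Atf4 and 0.164 for Herpud1. Without both replicate 1 mice, whose high-fat libraries held the most Kupffer marker reads, Herpud1 was still called (-0.21, limma adjusted p = 0.0439) and Atf4 was not.

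Per mouse, the log2 difference between the fractions of Herpud1 was -0.28, -0.36 and -0.24 in WT replicates 1 to 3 and -0.30, -0.14 and -0.13 in KO replicates 1 to 3. For Atf4 it was -0.29, -0.46 and -0.10 in WT and -0.25, -0.14 and -0.15 in KO. All 12 of these differences were negative, with WT replicate 2 the most negative for both genes. Hsp90b1, Xbp1, Atf4, Herpud1 and Dnajb9 were lower in 6 of 6 mice, against 11.7% of all genes. With the deposited scaling alone they were Hspa5, Atf4, Atf6 and Herpud1, against 6.18% of all genes, so Atf4 and Herpud1 were lower in 6 of 6 mice under either scaling. Ddit3 differed in sign between mice, at 0.14 and 0.20 in WT and KO replicate 1 and between -0.43 and -0.06 in the others. The summed reads of the nuclear RNAs Malat1 and Neat1 moved alike in some mice, from 61663 in the low-fat to 153820 in the high-fat library of WT replicate 1, from 43080 to 152098 in KO replicate 1 and from 123592 to 31684 in KO replicate 2. In WT replicate 2 they were 103224 and 103264, in WT replicate 3 27171 and 33872, and in KO replicate 3 29020 and 32342. Their part in the result for Ddit3 was not tested.

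**Figure D2:**
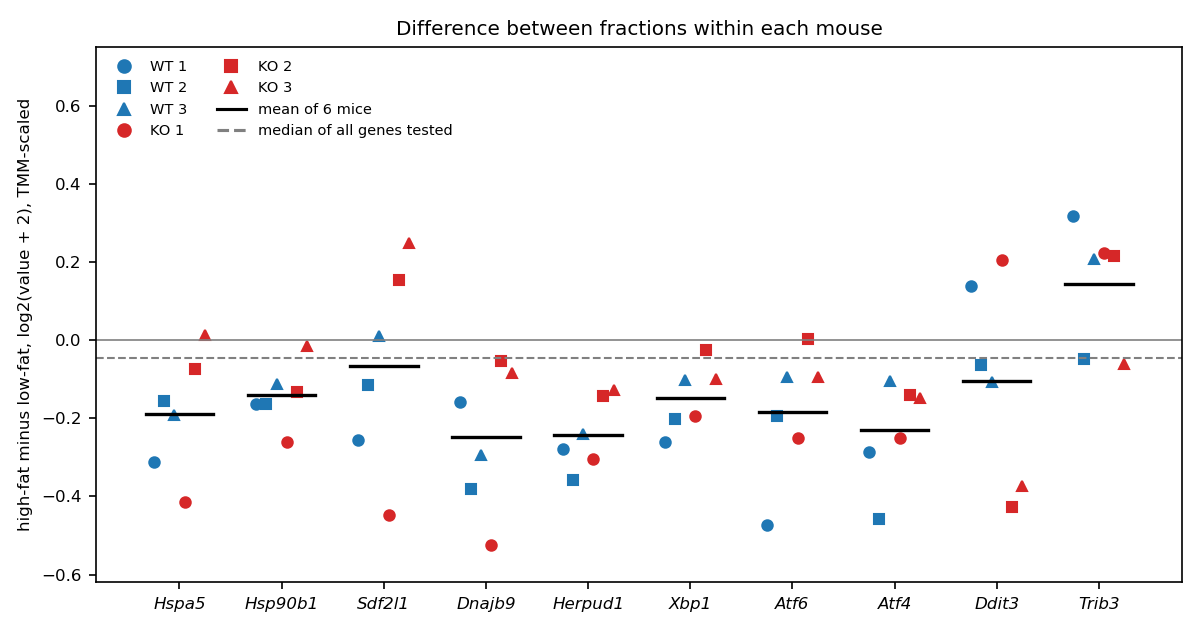
High-fat minus low-fat log2 level (vertical axis, TMM-scaled) of each gene in each of the 6 mice, with the mean as a black bar and the median of all genes tested (-0.05) as a dashed line. Means lie below the dashed line for all genes but Trib3, and KO replicate 1 is the lowest point for Hspa5, Hsp90b1, Sdf2l1 and Dnajb9.

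The composition of the fractions differed as well. Of the markers of other cells, 8 of 8 stellate genes, 8 of 8 endothelial genes and 6 of 8 Kupffer genes were called higher in the high-fat libraries over both genotypes by limma without the mouse term, with median log2 fold changes of 2.58, 1.76 and 2.14. Hepatocyte markers had a median of -0.16, nearly that of the ER stress genes, and 7 of the 8 were lower, while Cyp2e1, which was named after its values were seen, was called higher. Genes of the early response to cell isolation had a median of 0.005 and cytosolic heat shock genes one of -0.065, with 0 of 8 called in each. In bulk RNA, fewer cells of a type and less RNA per cell cannot be told apart, and the part of cell composition in the lower levels was not tested.

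Within a genotype the same pattern was present at lower precision. In WT, 9 of the 10 genes were lower in the high-fat libraries with a median log2 fold change of -0.20 (all genes -0.05). The limma fit called 0 of the 10 and 0% of all genes, of which 2014 had an unadjusted p under 0.05. With the mouse term it called 0 of the 10 and 1.18% of all genes. An unadjusted p under 0.05 was then reached by 5 of the 10 and by 3298 of 16563 genes. KO replicate 1 enters the WT comparison only through the shared spread and the TMM factors, which were computed anew without it. With that mouse left out, the fit with the mouse term called Atf4, Herpud1 and Dnajb9 in WT. Their log2 fold changes were -0.30, -0.31 and -0.29, with limma adjusted p of 0.0362, 0.0226 and 0.0255. The same fit called 1864 of 16563 genes in WT, against 195 with KO replicate 1 in. In KO, 9 of the 10 were lower with a median of -0.15 (all genes -0.04), and 0 of the 10 were called without or with the mouse term, against 1.04 and 2.29% of all genes. None of the 10 had an unadjusted p under 0.05 in KO, against 1453 of 16563 genes, or 2278 with the mouse term. The groups of low-fat and high-fat libraries overlapped for all 10 genes in both genotypes, while 18.2% of all genes in WT and 13.4% in KO did not overlap.

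Whether the difference between fractions depended on genotype was tested as an interaction, the KO difference minus the WT difference. It ranged from -0.19 for Ddit3 to 0.14 for Atf6 with a median of 0.07 (all genes 0.03). The limma fit called 0 of the 10 and 0% of all genes, with or without the mouse term. An unadjusted p under 0.05 was reached by 0 of the 10 and by 24 of all genes, or 62 with the mouse term.

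Loss of Ptprk was not accompanied by a detectable difference in any of the 10 genes. Between KO and WT, limma called 0 of the 10 in low-fat hepatocytes, where 0.00604% of all genes (Ptprk) were called, and 0 of the 10 in high-fat hepatocytes, again against 0.00604% (Ptprk). The libraries of both fractions come from the same mice, so these 2 comparisons are not independent. None of the 10 had an unadjusted p under 0.05 in either fraction, and none was called under any other setting tried. With the replicate number as a term limma called 0 of the 10 in either fraction, against 0.00604% of all genes in low-fat and 0.0121% in high-fat hepatocytes. The libraries of WT and KO overlapped for all 10, whereas those of 5.42% (low-fat) and 4.93% (high-fat) of all genes did not. The median log2 fold change was 0.05 in low-fat and 0.04 in high-fat libraries, beside -0.003 and 0.014 for all genes. Ptprk itself fell by 1.13 in low-fat (SE 0.099, limma adjusted p = 0.00189) and by 0.97 in high-fat hepatocytes (SE 0.099, limma adjusted p = 0.00997).

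Intervals show how far a difference between genotypes could go unseen. For Atf6 the log2 fold change was 0.05 (95% interval -0.21 to 0.32) in low-fat and 0.19 (-0.07 to 0.46) in high-fat hepatocytes, the narrowest of the 10. Atf4 was at -0.08 (-0.38 to 0.23) and 0.03 (-0.28 to 0.33), and Xbp1 at -0.17 (-0.53 to 0.18) and -0.09 (-0.45 to 0.27). For the chaperone Hspa5 the values were -0.05 (-0.67 to 0.57) and 0.02 (-0.61 to 0.64), and for Hsp90b1 0.05 (-0.50 to 0.60) and 0.06 (-0.49 to 0.62). Herpud1 was at 0.22 (-0.77 to 1.21) and 0.32 (-0.67 to 1.31), Dnajb9 at 0.11 (-0.74 to 0.95) and 0.17 (-0.68 to 1.01), Sdf2l1 at -0.09 (-1.27 to 1.1) and 0.02 (-1.17 to 1.2), and Ddit3 at 0.06 (-0.67 to 0.80) and -0.12 (-0.86 to 0.61). Trib3 had the highest values, 0.63 (-0.41 to 1.67) and 0.60 (-0.44 to 1.64), with means ± SD of 166 ± 77.5 in WT low-fat and 259 ± 121 in KO low-fat libraries (n = 3 each) and 196.7 ± 94.4 and 290.7 ± 130 in high-fat. Without both replicate 1 high-fat libraries, the high-fat values of Xbp1 and Sdf2l1 changed sign, to 0.01 and -0.05.

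**Figure D3:**
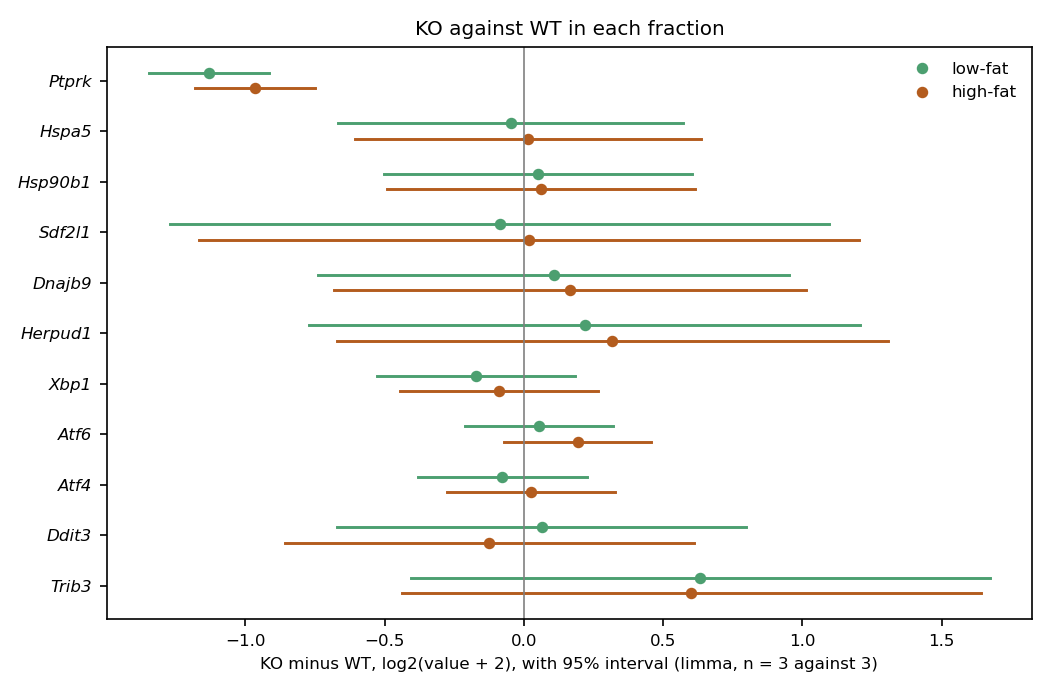
KO minus WT on the log2(value + 2) scale (horizontal axis) in low-fat and high-fat hepatocytes, with 95% limma intervals, n = 3 libraries against 3. Every interval of the 10 genes spans 0, while both intervals of Ptprk lie wholly below 0.

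Differences between individual mice took the largest share of the sum of squares for each of the 10 genes. The sum of squares of each gene over the 12 libraries was divided into a share for genotype, a share for mice within a genotype, a share for fat fraction and a remainder. The mice are more numerous than the fractions or genotypes, so they take a larger share even where mice do not differ. The shares were not adjusted for this. Mice took 96.3% for Sdf2l1, 91.9% for Hsp90b1, 89.3% for Herpud1, 89.1% for Ddit3, 88.3% for Dnajb9 and 87.8% for Hspa5. They took 74.6% for Trib3 and 73.3% for Xbp1. Only Atf4 (52.2% mice, 37.4% fraction) and Atf6 (37.1% mice, 29.6% fraction) gave the fraction a comparable share. The median share of mice was 88.1% over the 10 genes, 45.5% over all genes tested and 48.4% over genes that average 100 or more reads per 20 M, and this comparison is a description without a test. Genotype took 22.9% for Trib3, 13.1% for Atf6, 10.1% for Xbp1 and at most 5.6% for the others.

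**Figure D4:**
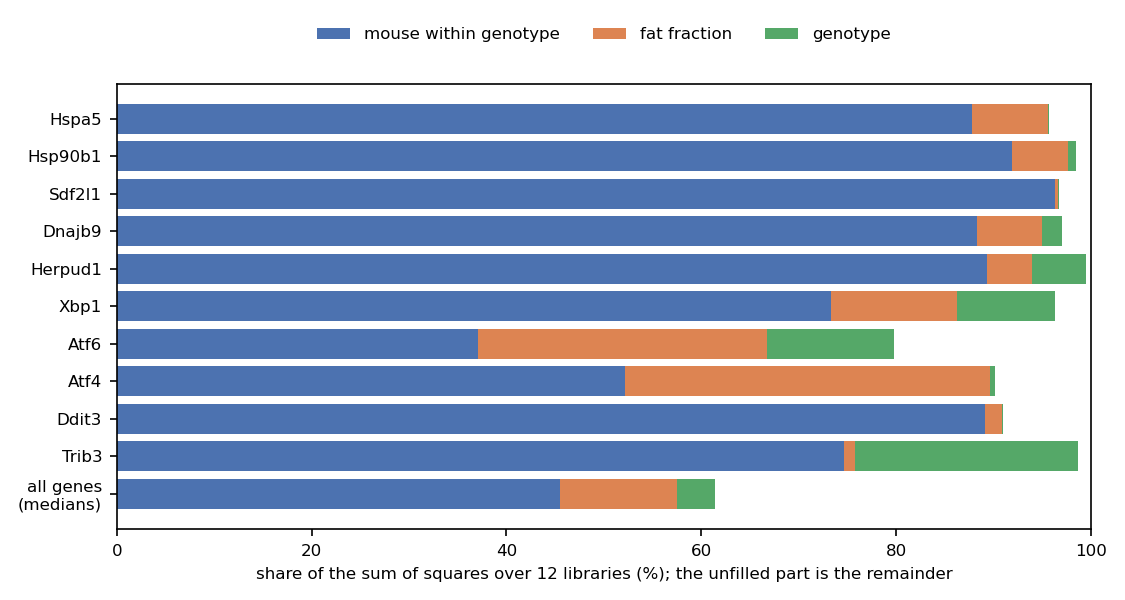
Share of the sum of squares over 12 libraries (horizontal axis, %) taken by mice within genotype, by fat fraction and by genotype for each gene, with the medians of all genes tested in the lowest bar. The bar for mice is the longest segment in every row, from 37.1% for Atf6 to 96.3% for Sdf2l1. Shares are not adjusted for mice being more numerous than fractions or genotypes.

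Averaged over both fractions after TMM scaling, the highest and the lowest mouse differed 3.65-fold for Trib3, 3.35-fold for Sdf2l1, 3.01-fold for Herpud1, 2.46-fold for Dnajb9 and 2.17-fold for Ddit3. The fold was 1.80 for Hspa5, 1.69 for Hsp90b1, 1.51 for Xbp1, 1.34 for Atf4 and 1.28 for Atf6, with a median of 1.27 over genes with a mean of at least 100. The mice did not follow a single order. Hspa5 and Atf4 were highest in WT replicate 1, Hsp90b1, Sdf2l1 and Ddit3 in KO replicate 1, Dnajb9, Herpud1, Trib3 and Atf6 in KO replicate 2, and Xbp1 in WT replicate 3. WT replicate 2 was lowest for Hspa5, Dnajb9, Herpud1 and Atf6, and KO replicate 3 for Hsp90b1, Sdf2l1 and Ddit3. Over all genes tested, WT replicate 2 was lowest for 4052 of 16563 and KO replicate 3 for 2658. These 2 mice, 1 of each genotype, were the lowest pair for Hspa5, Hsp90b1, Sdf2l1 and Herpud1.

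Sdf2l1 and Dnajb9 show how far the orders diverged. Mouse means of Sdf2l1 were 1235.8, 516.6 and 961.2 in WT replicates 1 to 3 and 1409.1, 967.8 and 419.1 in KO replicates 1 to 3. Those of Dnajb9 were 1255.1, 900.5 and 1831.2, and 1002.9, 2215.9 and 1236.4. KO replicate 1 had the most Sdf2l1 but the second lowest level of Dnajb9. Other properties of the libraries moved with the mice too. The sum of 8 cytosolic heat shock genes was 21347 to 22083 in the libraries of KO replicate 3 and 28950 to 31617 in those of KO replicate 1, and the sum of 8 early response genes was 24038 and 17561 in KO replicate 2 but 6519 and 11360 in KO replicate 1, low-fat and high-fat. Their part in the mouse differences was not tested. Mouse differences may include those between isolations, and the days of isolation are not given in the sources used here.

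**Figure D5:**
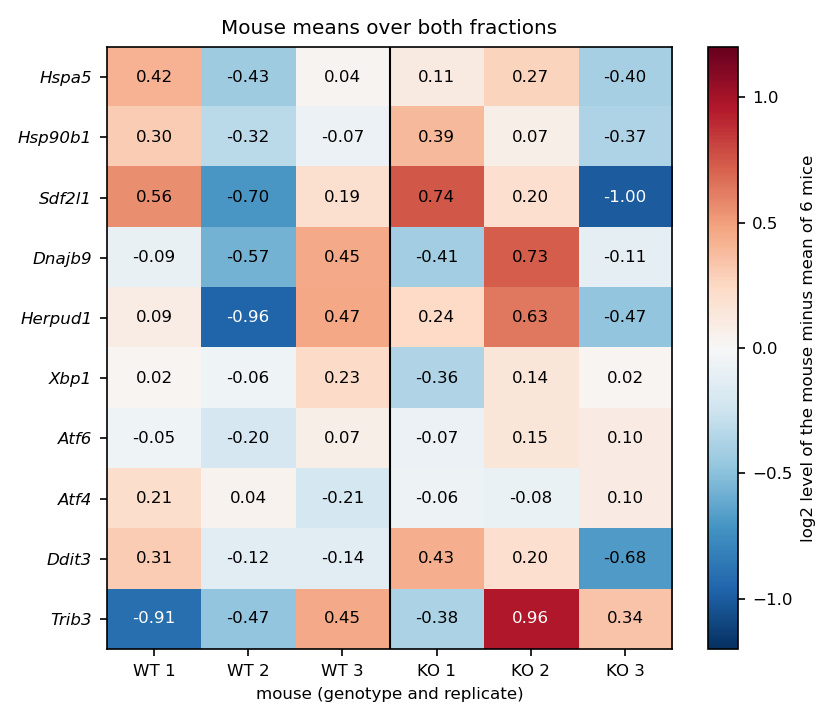
Log2 level of each mouse (columns) minus the mean of the 6 mice for each gene (rows), both fractions averaged; red is above and blue below the mean. WT replicate 2 and KO replicate 3 are blue for Hspa5, Hsp90b1, Sdf2l1, Dnajb9, Herpud1 and Ddit3, whereas Atf4 and Atf6 stay between -0.21 and 0.21.

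Genes that followed Hspa5 most closely were sought among 10396 tested genes with a symbol and 100 or more reads per 20 M on average. The highest Pearson correlations of log2 levels over the 12 libraries, which come from 6 mice in pairs, were those of Manf (r = 0.975), which encodes an ER-resident protein secreted under ER stress, Saa4 (r = 0.958), a serum amyloid A gene, Ubfd1 (r = 0.957), 4930524O07Rik (r = 0.947) and Lpin1 (r = 0.941), a phosphatidate phosphatase of lipid synthesis. Among the other ER stress genes r with Hspa5 was 0.868 for Hsp90b1, 0.867 for Sdf2l1 and 0.81 for Herpud1. It was 0.671 for Ddit3, 0.528 for Dnajb9, 0.389 for Atf6, 0.206 for Xbp1, 0.181 for Atf4 and -0.106 for Trib3. The genes closest to Ddit3 were Luc7l (r = 0.936), Jmjd6 (r = 0.93), Gm15890 (r = 0.922), Sfpq (r = 0.916) and Slc17a9 (r = 0.913). These values describe likeness across libraries that share mice and carry no test.

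The rest of the pathway was read from 3 lists: 18 sensors and regulators, 30 folding and ER-associated degradation (ERAD) genes, and 22 targets of ATF4, of which 20 were tested. Of the 30 folding and ERAD genes 29 had lower means in high-fat libraries over both genotypes, with a median log2 fold change of -0.20, against -0.05 over all genes and -0.16 over the hepatocyte markers. Limma without the mouse term called 0 of 30, against 5.74% of all genes. An unadjusted p under 0.05 was reached by 6 of 30 and by 3168 of 16563 genes. With the estimated correlation limma called 4 of 30, against 1946 of 16563 genes. With the mouse term it called 5 of 30, all lower, against 3.7% of all genes called lower and 10.5% called in either direction. Those with the smallest adjusted p were Ero1lb (Ero1b), an oxidase that drives disulfide formation, which fell by 0.46 (SE 0.067, limma adjusted p = 0.0051), Sel1l, the scaffold of the HRD1 ubiquitin ligase, which fell by 0.26 (SE 0.057, limma adjusted p = 0.0239), and Derl2, an ERAD membrane protein, which fell by 0.26 (SE 0.059, limma adjusted p = 0.0299). All were lower in 6 of 6 mice. The remaining calls, named after their values were seen, were Manf (-0.29) and Creld2 (-0.23). Ero1lb was also called in WT alone (-0.52, limma adjusted p = 0.0469 with the mouse term).

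Ero1lb gave 4196, 2751 and 2898 in WT low-fat, 2955, 1966 and 2374 in WT high-fat, 3811, 3344 and 2166 in KO low-fat and 2857, 2681 and 1781 in KO high-fat replicates 1 to 3. The high-fat value was below the low-fat value in each mouse, although the groups overlapped. The folding and ERAD genes shared the low mice, with WT replicate 2 lowest for 20 of 30 and KO replicate 3 for 8 of 30. Over all genes tested these mice were lowest for 4052 and 2658 of 16563. Mice took over 50% of the sum of squares in 23 of 30, against 43.1% of all genes tested. The ER stress element was found for 7 of the 25 genes of this list that had a promoter window, against 0.137% of all genes with one.

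Among the sensors and regulators 17 of 18 were lower in high-fat libraries, with a median log2 fold change of -0.10. Limma called 0 of 18 without the mouse term, against 5.74% of all genes. An unadjusted p under 0.05 was reached by 3 of 18 and by 3168 of 16563 genes. With the estimated correlation limma called 3 of 18, against 1946 of 16563 genes. With the mouse term it called 1 of 18, a share below the 10.5% of all genes. Ern1, the gene of the sensor IRE1, fell by 0.20 (SE 0.049, limma adjusted p = 0.0383, lower in 6 of 6 mice). Ern1 measured 3081, 3861 and 3359 in WT low-fat, 2943, 3558 and 3049 in WT high-fat, 3299, 3179 and 2768 in KO low-fat and 3219, 2773 and 2495 in KO high-fat replicates 1 to 3. Its high values lay in other mice than those of Hspa5, with WT replicate 2 highest in both fractions.

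The ATF4 targets were split between directions, 15 of 20 being lower in high-fat libraries. Without the mouse term, an unadjusted p under 0.05 was reached by 2 of 20 and by 3168 of 16563 genes. With the estimated correlation limma called 0 of 20, against 1946 of 16563 genes. It called 0 of 20 without the mouse term, and 2 of 20 with it, in opposite directions, near the 10.5% of all genes. Gdf15, a secreted stress cytokine, rose by 0.63 (55.1% higher, SE 0.124, limma adjusted p = 0.0154), and Ddit4, an inhibitor of mTORC1 signalling, fell by 0.26 (SE 0.059, limma adjusted p = 0.028). Gdf15 was counted at 309, 1210 and 1167 in WT low-fat, 797, 1700 and 1724 in WT high-fat, 610, 1793 and 1106 in KO low-fat and 1446, 2273 and 1335 in KO high-fat replicates 1 to 3. It was higher in the high-fat fraction in 6 of 6 mice, as were 9.73% of all genes, and most so in both replicate 1 mice (1.2 and 1.02 on the log2 scale), whose high-fat libraries also held the most Kupffer marker reads. Whether those cells contribute to it was not tested. In the genotype comparisons and the interaction, limma called 0 genes of the 3 lists, with or without the replicate term, and at most 1 of each list had an unadjusted p under 0.05.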

How the data were processed

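Polyadenylated RNA of 12 libraries from 6 mice had been sequenced. The deposited values are a score: the authors scaled gene read counts to 20 M (M, mega) per library and rounded up, which was read from the values: all columns have a total of 20.01 M, with regular steps among low values. Genome build mm9 is named in the submitters' processing notes, but 99.56% of the gene identifiers are in GENCODE M21 (GRCm38), from which exon lengths were taken. Aligner, counter and strandedness are not given in the sources used here. Depth was estimated from the steps, and the method was tested on 6 simulated libraries, where the largest error was 0.027%.

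The test fixed for all 6 comparisons was limma 3.58.1 in R 4.3.3 with 4 group means fitted to all 12 libraries together and an intensity trend, on log2(value + 2) after TMM scaling with factors of 0.939 to 1.095. The genes tested, thresholds and adjustment are given above. The fraction comparisons were repeated with a term for the mouse. The labels give both libraries of a number the same mouse name, and their deviations from the group means correlated with r of 0.471 to 0.58 in WT and -0.011 to 0.46 in KO. WT and KO mice that share a number are different animals, with r of 0.252 to 0.397 in low-fat and -0.174 to 0.491 in high-fat libraries.

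The members and the gene lists were chosen with earlier results of these data known, so their counts are descriptions. From each pathway list, called genes were named up to the 3 smallest adjusted p per comparison. For likeness, the 5 genes with the highest r were named. Alternatives were another scaling, another pseudocount (0.5 or 10), no filter on low values, only the libraries compared, a same-mouse correlation, and each library or mouse left out. Replicates are mice. Without the mouse term, p-values set a difference against the spread between the libraries of a group, and the libraries are treated as independent. With it, p-values of the fraction comparisons set the mean fraction difference against its variation between mice.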

Additional observations from a re-analysis of the deposited data

How the results depend on the processing

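No ER stress gene was called between genotypes under any setting tried (0 of 20 values), and the limits lie in the 3 mice per group and in signs near 0. For KO against WT in high-fat hepatocytes the deposited scaling alone gave -0.019 for Hspa5, -0.008 for Atf4 and -0.015 for Sdf2l1, and median-of-ratios scaling -0.004 for Hspa5. Without both replicate 1 high-fat libraries, a setting chosen after seeing the data, Xbp1 was at 0.012 and Sdf2l1 at -0.048. For high-fat against low-fat over both genotypes, Sdf2l1 was at 0.011 with the deposited scaling and at 0.084 with the mouse term and both replicate 1 mice left out. Leaving out 1 library or mouse at a time moved 19 of 30 values in these 3 comparisons across 0 at least once. The cause of these changes was not tested.

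The following are the ranges with 1 library left out, in the fit without the mouse term. In the fraction comparisons this leaves 1 mouse in only 1 fraction, so differences between mice enter the fraction difference. For KO against WT in low-fat hepatocytes they were -0.282 to 0.203 for Hspa5, -0.164 to 0.292 for Hsp90b1, -0.226 to 0.024 for Atf4, -0.033 to 0.111 for Atf6, -0.103 to 0.365 for Ddit3, -0.178 to 0.547 for Herpud1, -0.182 to 0.382 for Dnajb9 and -0.581 to 0.481 for Sdf2l1. In high-fat hepatocytes they were -0.199 to 0.178 for Hspa5, -0.12 to 0.232 for Hsp90b1, -0.214 to 0.048 for Xbp1, -0.06 to 0.107 for Atf4, -0.483 to 0.255 for Ddit3, -0.121 to 0.613 for Herpud1, -0.207 to 0.447 for Dnajb9 and -0.348 to 0.444 for Sdf2l1. For high-fat against low-fat over both genotypes they were -0.258 to 0.084 for Ddit3, -0.046 to 0.332 for Trib3 and -0.345 to 0.185 for Sdf2l1. With the mouse term and both libraries of 1 mouse left out, Ddit3 (-0.211 to -0.048) and Trib3 (0.096 to 0.195) kept their signs. Sdf2l1 (-0.129 to 0.035) did not. With 1 library or mouse left out, medians of the 10 genes ranged from -0.314 to 0.016 for the fractions in WT and -0.365 to 0.015 in KO. They ranged from -0.253 to -0.068 over both genotypes and -0.166 to 0.189 for the interaction.

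The replicate block is the mouse in the fraction comparisons, but between genotypes it is the replicate number, which different animals share. With it, limma called 2 genes between genotypes in high-fat hepatocytes. Between fractions it called 195 in WT, 379 in KO and 1732 over both genotypes. Of these, 1 folding and ERAD gene was called in WT, and over both genotypes 2 of the 10 ER stress genes, 1 sensor or regulator, 5 folding and ERAD genes and 2 ATF4 targets. A same-mouse correlation gave 368, 540 and 1946 calls between fractions, with 0 of the 10 ER stress genes, 3 sensors or regulators, 4 folding and ERAD genes and 0 ATF4 targets over both genotypes. With the block and both replicate 1 mice left out, also chosen after seeing the data, there were 454 calls in WT and 468 in KO. They included 1 folding and ERAD gene and 1 ATF4 target in WT, and, over both genotypes, 1 ER stress gene, 2 folding and ERAD genes and 2 ATF4 targets. The median of the 10 genes was then -0.129 in WT and -0.066 in KO. The deposited scaling alone gave medians of -0.112 in WT and -0.087 over both genotypes, and 102 calls in KO. No filter gave 107 calls in KO, and a pseudocount of 10 gave 1 in WT. Fitting only the libraries compared left 0 calls in KO between fractions (1383 at an unadjusted p under 0.05) and 0 between genotypes in high-fat hepatocytes (221). With 1 library or mouse left out, calls ranged from 0 to 1 between genotypes in high-fat hepatocytes (0 without KO high-fat replicate 2 or 3), 0 to 1864 in WT, 0 to 323 in KO and 606 to 2972 over both genotypes. Over both genotypes the count moved by over 1.5 times without the KO replicate 1 low-fat or high-fat library and, with the block, without WT replicate 1, KO replicate 1 or KO replicate 2, and in KO it moved so without any KO library. The 1864 calls in WT arose with the block and without KO replicate 1, and held 3 ER stress genes, 3 sensors or regulators, 15 folding and ERAD genes and 3 ATF4 targets. Over both genotypes up to 3 ER stress genes, 4 sensors or regulators, 11 folding and ERAD genes and 4 ATF4 targets were called, and as few as 0 of each. In the genotype comparisons the replicate block changed no call of an ER stress gene.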

Other observations

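Values of 3 targets of ATF4 with wide differences between mice, chosen after their values were seen, are given here. Chac1, which encodes a glutathione-degrading enzyme, measured 490, 58 and 323 reads per 20 M in WT low-fat replicates 1 to 3 and 546, 58 and 324 in the high-fat libraries of the same mice. In KO replicates 1 to 3 it measured 138, 904 and 198 in low-fat and 181, 780 and 169 in high-fat libraries. The mouse means lay up to 14.5-fold apart, and mice took 96.4% of the sum of squares, against 0.1% for the fat fraction. KO replicate 2, the highest mouse for Chac1, was also the highest for Trib3, Herpud1 and Dnajb9, and WT replicate 2, the lowest, was also the lowest for Herpud1 and Dnajb9.

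Fgf21, the gene of a secreted metabolic hormone, lay up to 5.26-fold apart between mice and Atf3, a stress-induced transcription factor, up to 8.98-fold. Atf3 was counted at 14 and 48 in the low-fat and high-fat library of KO replicate 1 and at 331 and 187 in those of KO replicate 2, where the summed early response genes were 6519 and 11360 against 24038 and 17561. The part of the isolation response in that difference was not tested. The highest and the lowest mouse were over 2-fold apart for 12 of the 20 ATF4 targets, 5 of the 10 ER stress genes, 5 of the 30 folding and ERAD genes, 2 of the 18 sensors and regulators and 22.7% of all genes tested.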
